A study of Mus musculus with 2 samples.

Results

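The 9 genes Foxo1, Foxo3, Pik3ip1, Txnip, Ddit4, Tsc22d3, Inpp5d, Tsc1 and Phlpp1 encode brakes on growth signalling through phosphoinositide 3-kinase (PI3K), the kinase AKT and mTOR. Their probes were taken by gene name from the noncontrol probes of the arrays, 13 probes in all, of 55681 noncontrol probes and 27665 named genes. All 9 genes were well above background on both arrays, as were 14378 named genes in all. The tested RNA came from CD4 T cells sorted after 24 h of co-culture, in which spleen cells stimulated beforehand with the superantigen TSST-1 (0.1 μg/mL), the cells named anergic in the sample title, were mixed in equal numbers with fresh spleen cells and given ovalbumin (OVA, 0.1 mg/mL). Its comparator came from CD4 T cells sorted after 24 h of a naive-only culture, in which fresh spleen cells at 2500000 cells/mL received OVA alone. The donors of both cultures were female OVA-TCR-Tg mice, so every culture carried the transgenic receptor for OVA. The labels give neither the age nor the number of the mice. They also do not state that the sort separated the fresh cells from the cells stimulated with TSST-1, so that RNA of both may be on the co-culture array.

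Antigen and costimulation activate PI3K, which makes a membrane lipid that recruits AKT. AKT in turn phosphorylates the FOXO transcription factors, which then leave the nucleus, and releases the kinase complex mTORC1 from the TSC complex, so that a T cell leaves quiescence and grows. The genes described here act against this at several steps, and several of them are high in resting T cells and low soon after activation.

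Each culture gave 1 single-colour array, so none of the differences below was tested and none has a replicate check. A level is log2 of the processed signal relative to the array's 75th percentile, and a difference is co-culture minus naive-only. The error given beside a difference is technical and comes from the scanner software. It was close to 0.20 for every bright spot and was not measured gene by gene. Precision is limited by having 1 array a group. A gene was counted when its log2 difference was 1 or more in size, that is, 2-fold.

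Of the 9 brake genes, 4 were at least 2-fold higher in the co-culture, namely Ddit4, Tsc22d3, Txnip and Pik3ip1, and none was at least 2-fold lower. Among all measured genes, 7.72% were higher and 5.54% lower by 2-fold or more. Another 3 genes, Inpp5d, Foxo3 and Foxo1, had positive differences under 2-fold, and Tsc1 and Phlpp1 had small negative ones. The median difference of the 9 genes was 0.80, against -0.05 over all measured genes. The genes were chosen with earlier results of these arrays known, so these counts describe them and support nothing beyond that. Markers of T cells were also somewhat higher in the co-culture, with 8 of 9 positive and a median of 0.37. With the differences taken relative to that median, a scale chosen after the data were seen, 2 of the 9 genes were past 2-fold, Ddit4 at 1.75 and Tsc22d3 at 1.32, where 4.65% of all measured genes were higher and 12.9% lower by 2-fold or more. That scale moves the median of all measured genes to -0.42.

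**Figure D1:**
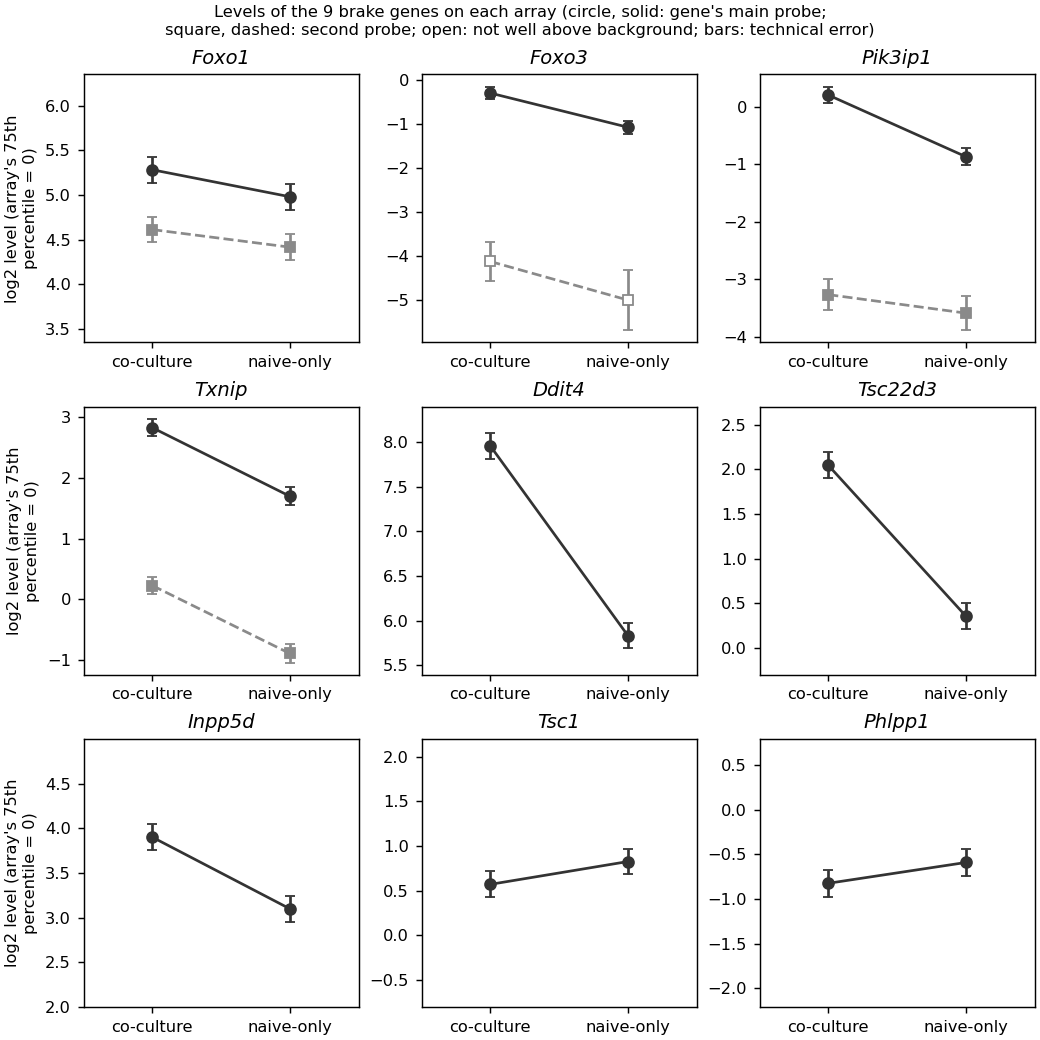
Levels of the 9 brake genes on the co-culture array (left in each panel) and the naive-only array (right), in log2 units relative to each array's 75th percentile. Circles mark the probe that stands for the gene, squares the second probe of Foxo1, Foxo3, Pik3ip1 and Txnip, open symbols a probe not well above background, and bars the technical error. The steepest line is that of Ddit4, at 7.96 in the co-culture and 5.83 in the naive-only culture, and the lines of Tsc1 and Phlpp1 slope slightly the other way.

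Ddit4 encodes REDD1, a stress-induced protein that restrains mTORC1 through the TSC complex. Its probe, at chr10:59412486-59412545 (mm9, minus strand), had a signal of 74839 intensity units in the co-culture and 17076 in the naive-only culture. The log2 levels were 7.96 and 5.83, and the difference of 2.12 ± 0.20 made Ddit4 4.36-fold higher in the co-culture. Of the 14378 measured genes, 270 had a greater difference. No spot was saturated on either array, so the brightness of Ddit4 set no ceiling on this value.

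Tsc1 encodes the scaffold of the TSC complex, which switches off RHEB, the activator of mTORC1. At chr2:28546610-28546669 (mm9) its signal was 447.3 intensity units in the co-culture and 530.5 in the naive-only culture. This gave levels of 0.57 and 0.83 and a difference of -0.26 ± 0.20, hardly larger than the technical error. Of the brakes that act at the TSC complex, Ddit4 was thus past 2-fold and Tsc1 was not.

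Tsc22d3 encodes GILZ, a small leucine zipper protein induced by glucocorticoids and by FOXO factors that dampens activation of T cells. Its probe, at chrX:137074094-137074153 (mm9, minus strand), is assigned in the array file to 2 RefSeq transcripts of the gene and thus does not part those isoforms. The signal was 1243 intensity units in the co-culture and 383.4 in the naive-only culture. Tsc22d3 was 3.22-fold higher in the co-culture, with levels of 2.04 and 0.36 and a difference of 1.69 ± 0.20. A greater difference was seen for 442 measured genes.

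Txnip encodes an alpha-arrestin that binds thioredoxin and limits glucose uptake. The brighter of its 2 probes, at chr3:96365147-96365206 (mm9), read 2140 intensity units in the co-culture and 972.2 in the naive-only culture, a difference of 1.13 ± 0.20. The second probe, at chr3:96364206-96364265, read 352.7 and 161.4 on the same arrays, a difference of 1.12 ± 0.21. These probes target separate stretches of the transcript and gave differences only 0.01 apart, so the 2.19-fold higher level of Txnip does not rest on 1 probe, although both read the same 2 RNA samples. Relative to the T cell marker median, the Txnip difference was 0.76. The second probe lies in the coding sequence, and its sequence is shown as the second target at which this difference was read.
Txnip second probe: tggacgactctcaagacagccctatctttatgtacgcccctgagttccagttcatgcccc

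Promoter sequence was examined because the 4 genes past 2-fold were all higher in the co-culture. RefSeq (GRCm38.p6) gave 11 windows for the 9 genes, each from 250 bases before to 50 bases after a start. Both strands were searched for the FOXO motif GTAAACA, the glucocorticoid receptor palindrome GNACANNNTGTNC, the hypoxia response core ACGTG, the E-box CACGTG, which contains that core, and the amino acid response motif TGATGNAA. Txnip was the 1 gene of the 9 with the FOXO motif, which began 121 bases before its start and occurs in 3.65% of all 32851 windows. The same window held a match to the palindrome beginning 172 bases before the start, a motif present in 0.475% of all windows. Ddit4 was the 1 gene with the core ACGTG, 187 bases before its start, where 19.6% of all windows hold it. The E-box and the amino acid response motif, in 7.15% and 3.97% of all windows, matched in none of the 11. The bases before the start of Txnip (chr3:96557707-96557956, plus strand) and Ddit4 (chr10:59951771-59952020, minus strand) are given below, with capitals marking the palindrome and the FOXO motif in Txnip and the hypoxia core in Ddit4. A match describes the letters and does not show that a factor binds there.
Txnip promoter: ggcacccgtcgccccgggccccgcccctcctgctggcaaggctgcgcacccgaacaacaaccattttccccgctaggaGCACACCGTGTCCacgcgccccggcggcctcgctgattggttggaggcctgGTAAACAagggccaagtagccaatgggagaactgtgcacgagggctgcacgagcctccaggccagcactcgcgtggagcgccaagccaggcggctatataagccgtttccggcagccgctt
Ddit4 promoter: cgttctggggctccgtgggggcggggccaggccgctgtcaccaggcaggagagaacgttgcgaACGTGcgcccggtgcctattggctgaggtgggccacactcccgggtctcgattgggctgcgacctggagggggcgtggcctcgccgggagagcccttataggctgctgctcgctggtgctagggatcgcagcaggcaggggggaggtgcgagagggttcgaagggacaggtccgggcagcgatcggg

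Pik3ip1 encodes a membrane protein that binds the catalytic subunit of PI3K and inhibits it. Its brighter probe, at chr11:3242107-3242166 (mm9), is assigned to the RefSeq transcript and read 346.9 intensity units in the co-culture and 164.1 in the naive-only culture. The difference was 1.07 ± 0.21, or 2.10-fold higher in the co-culture. The second probe, at chr11:3233674-3233733, is assigned to an Ensembl transcript and read only 31.4 and 25.0 intensity units, with a difference of 0.32 ± 0.40. The probes lay 0.75 apart, and 2-fold was passed by the brighter one only. The call also ended with normexp background correction (0.86), with the median of both probes (0.70) and relative to the T cell marker median (0.70), so Pik3ip1 stands at the threshold.

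Inpp5d encodes SHIP-1, the lipid phosphatase that breaks down the product of PI3K in blood cells. At chr1:89616958-89617017 (mm9) its signal was 4498 intensity units in the co-culture and 2564 in the naive-only culture. The difference of 0.80 ± 0.20 made it 1.74-fold higher, short of 2-fold. Phlpp1 encodes a phosphatase that dephosphorylates AKT, and read 170.3 intensity units in the co-culture and 198.9 in the naive-only culture at chr1:108290330-108290389. Its difference of -0.23 ± 0.21 was about as large as the technical error. The brake that acts on PI3K, the one that acts on its lipid product and the one that acts on AKT thus differed by 1.07, 0.80 and -0.23.

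Foxo1 encodes the main FOXO factor of T cells, which sustains genes of homing and survival in naive cells. Both of its probes were bright and close to unchanged. The probe at chr3:52150183-52150242 (mm9) read 11737 intensity units in the co-culture and 9461 in the naive-only culture, a difference of 0.30 ± 0.20, and the probe at chr3:52153289-52153348 read 7378 and 6397, a difference of 0.20 ± 0.20. The difference of the brighter probe was 0.39 in the deposited value table and -0.07 relative to the T cell marker median, so Foxo1 has no settled direction. The brighter probe lies in the coding sequence and is shown as the target on which this value rests.
Foxo1 brighter probe: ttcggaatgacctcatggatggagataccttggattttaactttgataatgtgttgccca

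Foxo3 encodes a related factor with overlapping targets. Its measured probe, at chr10:41967288-41967347 (mm9, minus strand), is assigned to a cDNA clone and an Ensembl transcript and not to the RefSeq transcript. It read 246.0 intensity units in the co-culture and 142.5 in the naive-only culture, a difference of 0.78 ± 0.21, or 1.72-fold higher. The probe of the RefSeq transcript, at chr10:41905610-41905669, read 17.2 and 9.29 and did not clear background in either culture. The level of the RefSeq transcript was therefore not measured.

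**Figure D2:**
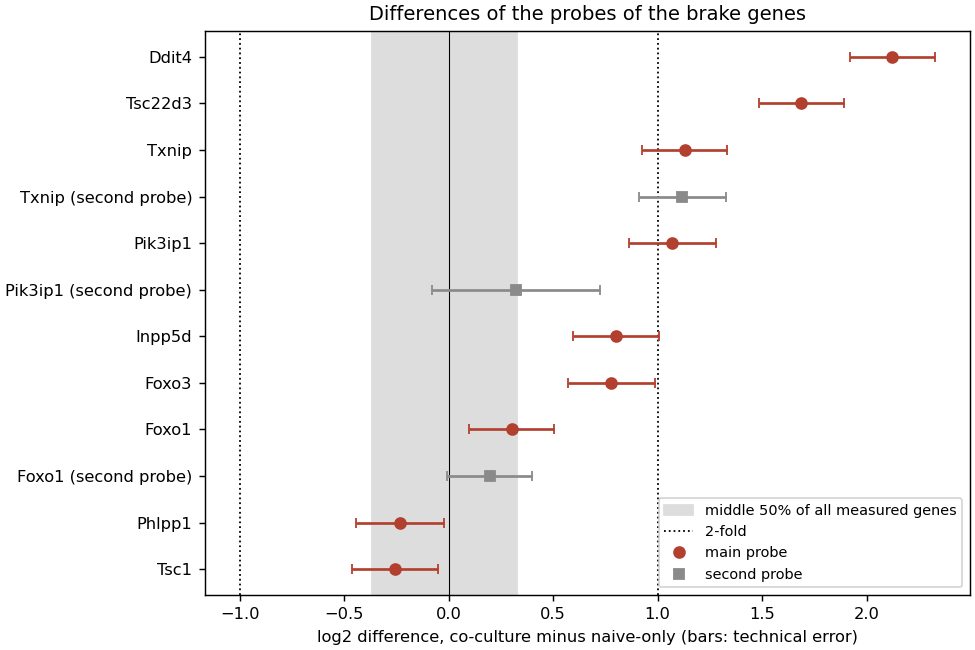
Log2 differences (co-culture minus naive-only, horizontal axis) of the 12 brake gene probes above background on both arrays, with the technical error as bars. Circles mark the gene's main probe and squares a second probe, the shaded band holds the middle 50% of all measured genes (-0.37 to 0.33), and dotted lines mark 2-fold. Ddit4 and Tsc22d3 lie clear of the 2-fold line, the bars of Txnip and Pik3ip1 cross it, and Foxo1, Phlpp1 and Tsc1 lie within the band.

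The list of FOXO factors and regulators of FOXO activity held 12 genes, Foxo1 and Foxo3 included. Of these, 10 were measured on both arrays and none was past 2-fold in either direction, with a median of 0.04. The other factors were above background on 1 array only, from dim probes. Foxo4 was above background in the co-culture only, where its signal was 1.68-fold higher (32.7 against 19.4 intensity units), which sets no lower limit. Foxo6, a factor known mainly from the brain, was above background in the naive-only culture only and at least 3.48-fold lower in the co-culture. Among the regulators, Sgk1, a kinase that can inactivate FOXO factors, had the largest positive difference (0.92 ± 0.20), and Crebbp, an acetyltransferase that modifies them, the largest negative one (-0.67 ± 0.20).

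Genes known as targets of FOXO factors, in contrast, were spread widely in both directions. Of 24 measured targets, 6 were higher and 7 lower by 2-fold or more, or 25.0% and 29.2%, beside 7.72% and 5.54% of all measured genes, and the median was 0.23. Higher in the co-culture were Ccng2, a cyclin linked to arrest (2.34 ± 0.28), and Rbl2, a relative of the retinoblastoma protein (1.80 ± 0.21). The interleukin 7 receptor gene Il7r (1.76 ± 0.20) and the death ligand gene Tnfsf10 (1.35 ± 0.22) were also higher. Ccng2 read only 31.1 intensity units in the naive-only culture, and its difference was 1.29 with normexp, while Tnfsf10 was at 0.92. With normexp Gadd45a (0.63) and Klf4 (-0.72) also lost their calls, which left 4 targets higher and 6 lower. Relative to the T cell marker median 3 targets were higher and 8 lower. Cdkn1b, the inhibitor of cyclin-dependent kinases that FOXO factors are known to induce, was at 0.66, short of 2-fold.

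Lower in the co-culture were Ccr7, S1pr1 and Klf2, genes of lymph node homing and egress that Foxo1 sustains in naive cells. Ccr7, the homing receptor gene, read 23398 intensity units in the co-culture and 122689 in the naive-only culture (-2.40 ± 0.20). S1pr1, the receptor gene for exit from lymph nodes, was at -1.38 ± 0.21 and Klf2, the factor that controls it, at -1.04 ± 0.20 (-0.99 with median scaling). Il7r and these homing genes, all named as Foxo1 targets in T cells, thus differed in opposite directions, beside a small difference of Foxo1 itself. Also lower were Bcl6, the transcriptional repressor that drives the follicular helper fate (-3.95 ± 0.23), the death gene Bcl2l11 (-2.41 ± 0.22, or -0.90 at its second probe) and Trib1 (-1.69 ± 0.20), which encodes a pseudokinase. Markers of B cells, which also express Bcl6 and Ccr7, were lower in the co-culture (10 of 10 measured, median -1.74). Their part in these differences was not tested.

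**Figure D3:**
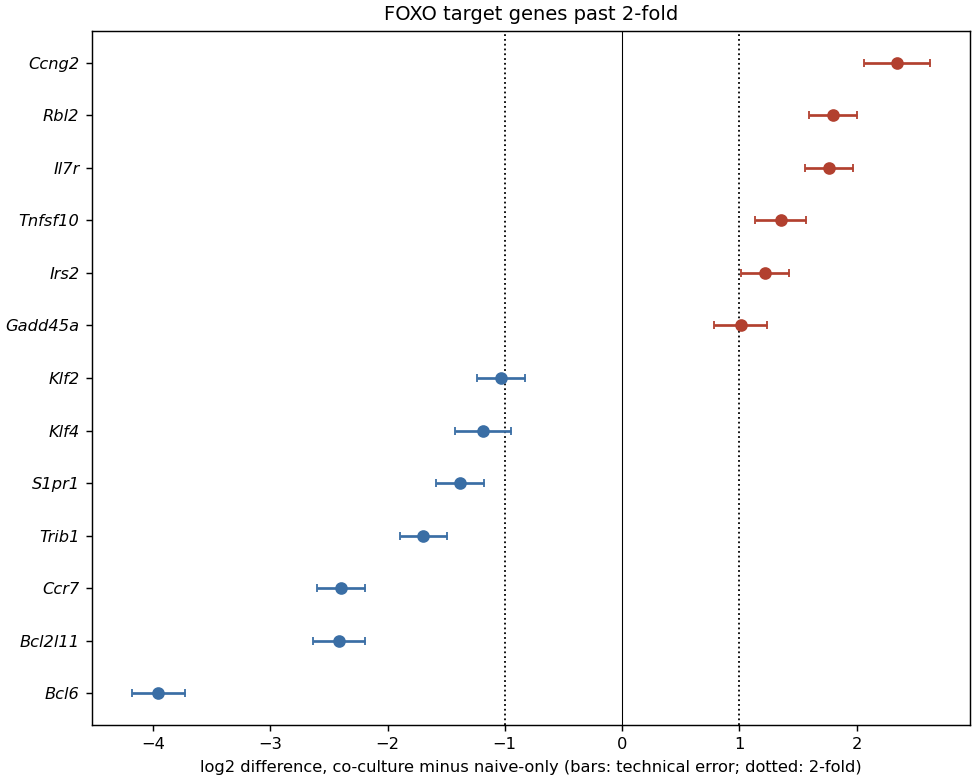
Log2 differences (co-culture minus naive-only, horizontal axis) of the 13 FOXO target genes past 2-fold, in order, with the technical error as bars and dotted lines at 2-fold. The 6 higher genes run from Ccng2 (2.34) over Irs2 (1.22) to Gadd45a (1.01), and the 7 lower ones from Klf2 (-1.04) over Klf4 (-1.19) to Bcl6 (-3.95).

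Of 12 measured genes for PI3K subunits and the kinases next to it, 1 was higher by 2-fold or more (8.33%, near the 7.72% of all measured genes) and none lower, with a median of 0.13. The higher one was Pik3cg, the catalytic subunit that acts downstream of G protein-coupled receptors (1.49 ± 0.20, and 1.33 at its second probe). Pik3cd, the catalytic subunit that serves antigen receptors, was at 0.23 ± 0.20, the regulatory subunit gene Pik3r1 at 0.14 ± 0.21 and Akt1 at -0.16 ± 0.20.

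Genes listed as brakes on PI3K and AKT were found in both directions. Of 16 measured genes, Pik3ip1 included, 5 were higher and 2 lower by 2-fold or more, beside 7.72% and 5.54% of all measured genes, with a median of 0.35. The number higher was 3 with the median of a gene's probes and 2 relative to the T cell marker median. Besides Pik3ip1, the higher ones were Trib3, a stress-induced pseudokinase that binds AKT (2.80 ± 0.20), Dok2, an adaptor that restrains receptor signalling (1.39 ± 0.20), and the lipid phosphatase genes Inpp4b (1.29 ± 0.20) and Inpp5b (1.24 ± 0.20). The second probe of Inpp4b gave 0.65, and the median of its probes 0.97. Among the lower was Trib2 (-2.68 ± 0.20). This pseudokinase is known to repress FOXO factors, so by that role it would not count as a brake. Inppl1, the close relative of Inpp5d, was at 0.87 ± 0.20 and Phlpp2, the relative of Phlpp1, at -0.17 ± 0.20. SHIP-1 and its relative thus stood at similar positive values and both phosphatases of the PHLPP pair at small negative ones.

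Genes of the mTOR complexes had the narrowest range of the pathway lists. None of 12 measured genes was past 2-fold, and 9 of 12 differences were negative, with a median of -0.28. Mtor was at 0.10 ± 0.20 and Rheb at -0.14 ± 0.20, while Deptor, an inhibitor subunit, was dim and at -0.67 ± 0.34. The median over the mTORC1 brakes was 0.22, and 3 of 17 measured genes passed 2-fold (17.6%, beside 7.72% of all measured genes), each of them higher. Relative to the T cell marker median 1 did. These were Ddit4, Txnip and Sesn2, a sensor of leucine that is induced by stress (1.32 ± 0.20). The other sestrin genes differed little, Sesn1 at 0.20 ± 0.20 and Sesn3 at -0.22 ± 0.20. Tbc1d7, the third subunit of the TSC complex, was at 0.43 ± 0.20. Tsc2, the catalytic subunit of that complex, was above background in the naive-only culture only. Its dim probe read 25.4 intensity units in the co-culture and 35.1 in the naive-only culture, 1.39-fold lower, which sets no lower limit.

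In the amino acid arm of mTORC1, none of 20 measured genes was past 2-fold (median 0.10). Castor1, the arginine sensor, came nearest at 0.99 and was the 1 gene past 2-fold under median scaling. Among the effectors of mTORC1 (median 0.04), 1 of 14 was at least 2-fold higher (7.14%, near the 7.72% of all measured genes). This was Eif4ebp1, the translation repressor that mTORC1 inactivates, with 39595 intensity units in the co-culture and 8470 in the naive-only culture (2.22 ± 0.20). Its relative Eif4ebp2 was at 0.07 ± 0.20. Eif4ebp1 and Trib3 are, like Ddit4, known to be induced by the transcription factor ATF4.

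A further list held factors known to induce Ddit4, namely those of amino acid stress, hypoxia and the p53 response, together with other targets of these factors. Its median of 1.18 was the highest of the pathway lists. Of 18 measured genes, 10 were past 2-fold (55.6%, beside 7.72% of all measured genes), each higher in the co-culture. Trib3 (2.80 ± 0.20), the p53 target Cdkn1a (2.32 ± 0.20), the asparagine synthetase gene Asns (2.28 ± 0.20) and Chac1, which degrades glutathione (2.26 ± 0.20), led them. Of the transcription factor genes in the list, Ddit3 was past 2-fold (1.76 ± 0.20). The others were under 2-fold at the probe that stands for the gene. Atf4 was at 0.94 ± 0.20, Hif1a, which encodes the oxygen-regulated factor, at -0.17 ± 0.20 and Trp53 at -0.11. Epas1, the relative of Hif1a, was at -0.02 at its brightest probe, but its 3 probes reached 2.22 and their median was 1.92. With the median of a gene's probes, 11 genes of the list were at least 2-fold higher. The difference of Cdkn1a came from the 1 measured of its 3 probes, and Mdm2, another target of p53, was at 0.04. Of the hypoxia targets, Bnip3 (1.93), Vegfa (1.80), Ndrg1 (1.28) and Egln3 (1.07) were past 2-fold. Egln1 (0.60) and P4ha1 (0.47) were not, and Ankrd37 was at -0.25.

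Relatives and known inducers of Txnip had differences of both signs. Of 12 measured alpha-arrestin and thioredoxin genes, 2 were at least 2-fold higher, Txnip and Arrdc2 (1.17 ± 0.20), and 1 was lower, the thioredoxin reductase gene Txnrd3 (-2.22 ± 0.20), beside 7.72% and 5.54% of all measured genes, with a median of -0.08. Relative to the T cell marker median, neither of the higher genes was past 2-fold. Arrdc4, which shares with Txnip its induction by glucose through MondoA, was at 0.00 ± 0.22, and the thioredoxin gene Txn1 at -0.04 ± 0.20. Arrdc3 did not clear background in either culture. The genes of MondoA, its relative and their partner (Mlxip, Mlxipl and Mlx) were at -0.11, -0.10 and -0.44.

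Of the relatives of Tsc22d3, Tsc22d4 was at 0.36, with its other probes reaching 1.54, and Tsc22d1 at -0.74. Tsc22d2 was above background in the naive-only culture only, and its dim signal was 1.36-fold lower in the co-culture, which sets no lower limit. In the list of this family and of glucocorticoid receptor targets, 6 of 16 measured genes were past 2-fold (37.5%, beside 7.72% of all measured genes), each higher in the co-culture, with a median of 0.82. The number was 4 with normexp and 3 relative to the T cell marker median. Higher besides Tsc22d3 were the metallothionein genes Mt1 (3.54 ± 0.20) and Mt2 (3.11 ± 0.20), which heavy metals also induce, and the transcription factor gene Zbtb16 (1.33 ± 0.23, or 0.83 with normexp). The probes of Mt1 disagreed, the dimmer one standing at -0.18. Fkbp5, a target often used as a readout of the receptor, was at 0.71 ± 0.20, and Nr3c1, the receptor gene, at 0.14 ± 0.20. Klf9 (1.32 ± 0.22, or 0.93 with normexp) and Errfi1 (1.26 ± 0.21) were also past 2-fold, while the classical targets Per1 and Dusp1 stood at 0.31 and 0.01.

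**Figure D4:**
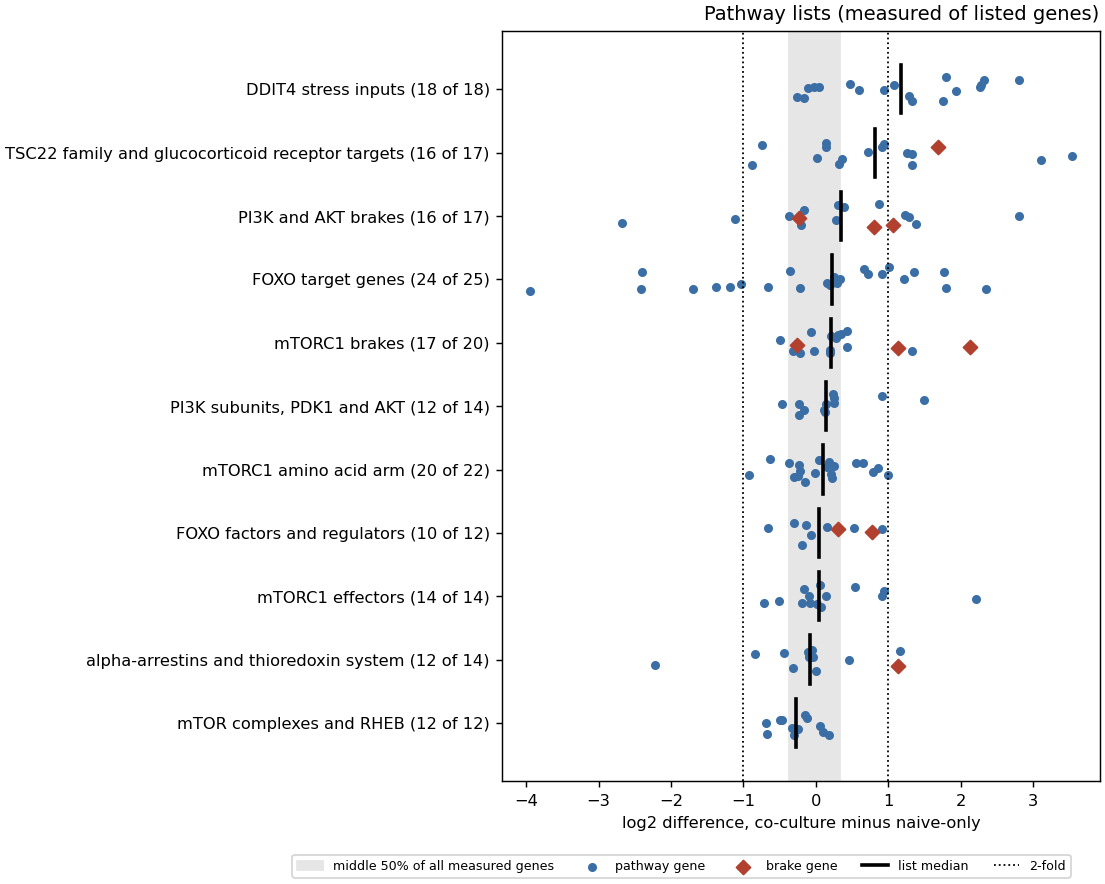
Log2 differences (co-culture minus naive-only, horizontal axis) of the measured genes of each pathway list, with the number measured of those listed beside its name. Red diamonds are the brake genes, blue dots other genes, black bars the list medians, and the shaded band holds the middle 50% of all measured genes. The list named DDIT4 stress inputs, which holds inducers of Ddit4 and their other targets (median 1.18), and that of glucocorticoid receptor targets (0.82) lie furthest to the right, and the mTOR complexes (-0.28) furthest to the left.

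Taking the pathway lists as a whole without the 9 brake genes, 27 of 153 measured genes (17.6%) were higher and 10 (6.54%) lower by 2-fold or more, beside 7.72% and 5.54% of all measured genes. The kinases and complexes that the brakes act on contributed 1 of the higher genes, Pik3cg. Some genes are in several lists, so the counts of the lists are not separate results.

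The sorted cells were checked against markers of the cell types a spleen culture could hold. Cd4 and Cd3e were well above background on both arrays, and the summed level of the T cell markers was 1529 in the co-culture and 1259 in the naive-only culture, in multiples of the array's 75th percentile. B cell markers summed to 9.26 and 42.1 and class II presentation genes to 52.9 and 215.2, and each had more lower than higher genes. Myeloid markers summed to 34.7 and 36.1, but 4 of 11 measured were at least 2-fold lower (Cd14, Tyrobp, Fcer1g and Lyz2, at -1.71 to -1.12) and none higher. The myeloid marker Mpo was above background in the co-culture only and at least 3.95-fold higher there. Natural killer markers summed to 83.5 in the co-culture and 27.9 in the naive-only culture. Among them Gzma (1.80, the brightest of them) and Prf1 (1.56), both of which activated T cells can also express, were higher. Eomes (-3.84) was lower, and Klra1 stood at -0.83. Klrd1 and Klrk1 were above background in the co-culture only, and Ncr1 and Klra8 in the naive-only culture only. Of 5 measured CD8 T cell markers, Klrc1 (3.65) was at least 2-fold higher and Eomes, which is also in this list, lower. Of 6 measured plasma cell markers (median -0.63), Jchain (-3.20) and Mzb1 (-1.46) were at least 2-fold lower and Prdm1 (1.84) and Xbp1 (1.15) higher. Of 7 measured dendritic cell markers 1 was higher and 3 were lower. Of 13 B cell markers on the array, 10 were above background on both arrays, and Pax5, Blk and Fcrla in the naive-only culture only. Foxo1, Foxo3, Inpp5d, Pik3ip1 and Txnip are among the brake genes that B cells also express. The part of B cells or the other cells in the values of any brake gene was not tested. In bulk RNA, fewer cells of a type and less RNA per cell cannot be told apart, and neither can a change in the fresh cells and the presence of the cells stimulated earlier.

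**Figure D5:**
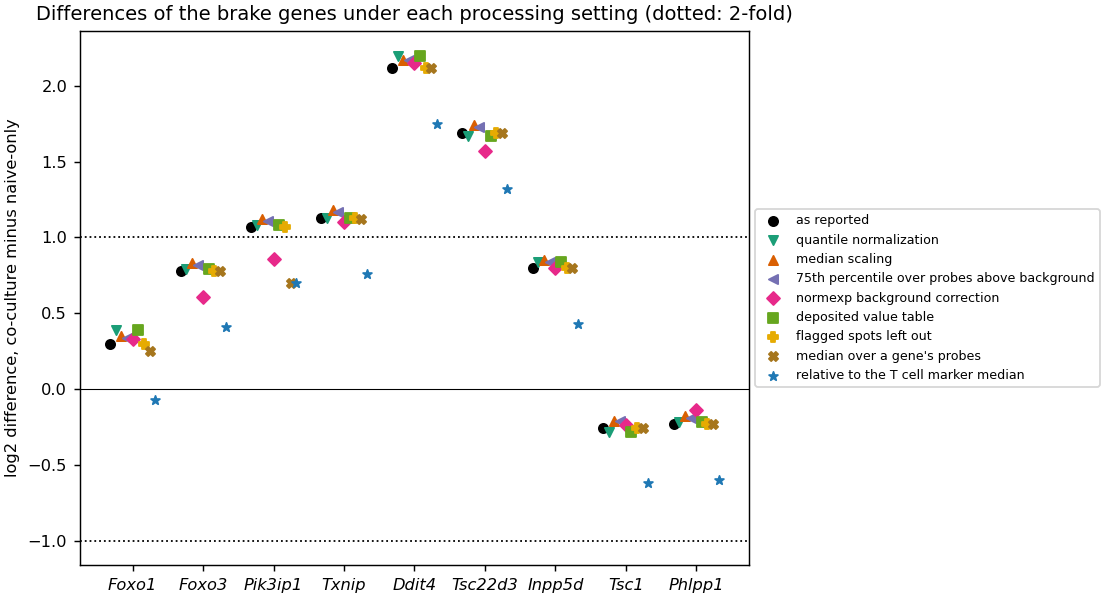
Log2 differences (co-culture minus naive-only, vertical axis) of the 9 brake genes as reported and under 8 other processing settings, with dotted lines at 2-fold. Ddit4 (1.75 to 2.20) and Tsc22d3 (1.32 to 1.74) stay above the upper line in each setting, and Txnip and Pik3ip1 fall under it relative to the T cell marker median (0.76 and 0.70). Pik3ip1 also falls under it with normexp (0.86) and with the median of its probes (0.70).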

How the data were processed

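Gene expression was measured in 2 RNA samples of sorted mouse CD4 T cells, 1 array each, grouped by sample title. Per the labels' protocols, amplification (Ovation RNA Amplification System V2) preceded labelling with Cy3, and this step can change relative levels. Per the file headers, the intensity of each spot was extracted and background-subtracted by Agilent Feature Extraction, version 10.7.1.1. Version 9.5.1.1 is given in the submitters' processing notes. The authors' deposited value table holds a normalized linear intensity (median 14.5 in both columns) and served as an alternative. Both arrays came from 1 slide and 1 scan.

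Processed signals were averaged over a probe's spots as log2 and scaled to each array's 75th percentile. Of 55681 noncontrol probes, 25136 (45.1%) were well above background in the co-culture and 25744 (46.2%) in the naive-only culture. A gene was represented by its brightest probe over both arrays and counted as measured where both arrays had it well above background. Where 1 array alone did, the fold was taken against the higher of the other array's lowest level well above background and the probe's own signal there. Against the former it is a bound. Against the probe's own signal, as for Foxo4, Tsc2 and Tsc22d2, it is a plain difference of dim signals. Symbols were updated through RefSeq accessions for 27235 of 36743 named probes, probe positions are those of the array files (mm9), and exon and UTR annotation was not used here. The coding place given for the second Txnip probe and the brighter Foxo1 probe is from general knowledge of the transcripts and was not computed.

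The 9 genes and all lists were chosen with earlier results of these data known. Besides the 9 genes, the text names up to 4 genes per direction past 2-fold in each list and, whatever their value, genes that the same rule lists by name, of which some are not reported here. Others (such as Sgk1, Crebbp, Castor1, Cdkn1b, Foxo6, Klf9, Errfi1 and the exceptions and relatives named beside a count) were chosen after their values were seen. With 2 arrays no likeness of pattern between genes could be measured. Calculations used Python 3.11.15, numpy 2.4.6, pandas 2.3.3, matplotlib 3.10.9, R 4.3.3 and limma 3.58.1 (normexp, offset 50), and were checked on simulated data. Other scalings, background corrections, probe choices and filters were tried.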

Additional observations from a re-analysis of the deposited data

How the results depend on the processing

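The differences of the 9 brake genes and the counts of each list past 2-fold were recomputed under alternatives set in advance and under 1, relative to the T cell marker median, chosen after the data were seen, giving 312 further values and counts. The filters on dim genes change counts only. Of these 312, 275 stayed within the technical error or within 1.5 times the count and 37 moved. Reversal was defined only for the 4 brake genes past 2-fold, and 0 reversed. Quantile normalization, the deposited value table and leaving out flagged spots moved none. The first 2 gave the same counts over all measured genes (1141 higher and 775 lower), so they are not separate checks. Median scaling and the 75th percentile over probes above background add 1 constant to every difference. It was below the technical error, so no brake gene difference could move there. Relative to the T cell marker median, every difference falls by 0.37 by construction, to -0.07 for Foxo1, 0.41 for Foxo3, 0.70 for Pik3ip1, 0.76 for Txnip, 1.75 for Ddit4, 1.32 for Tsc22d3, 0.43 for Inpp5d, -0.62 for Tsc1 and -0.60 for Phlpp1. On that scale, genes at least 2-fold higher numbered 2 of the 9 brake genes, 3 FOXO targets, 2 brakes of PI3K and AKT, 1 brake of mTORC1, 0 alpha-arrestin and thioredoxin genes and 3 glucocorticoid receptor targets. The PI3K subunits and the mTORC1 effectors had 1 each, and the list of DDIT4 stress inputs had 7. Genes at least 2-fold lower numbered 1 FOXO regulator, 2 of the mTOR complexes, 2 of the amino acid arm, 1 effector, 2 alpha-arrestin and thioredoxin genes and 2 glucocorticoid receptor targets. There were also 8 FOXO targets and 2 brakes of PI3K and AKT at least 2-fold lower. Pik3ip1 was at 0.86 with normexp and 0.70 as the median of its probes, a setting that left 3 brakes of PI3K and AKT higher and 2 alpha-arrestin and thioredoxin genes lower. Median scaling and the 75th percentile over probes above background each put 1 gene of the amino acid arm past 2-fold, and with no filter on dim genes 1 FOXO factor was lower. With only the brighter genes fewer could be counted, which left 1 of 3 brake genes higher, 1 FOXO target higher and 1 lower, 0 PI3K subunits higher, 3 brakes of PI3K and AKT higher and 1 lower, 0 alpha-arrestin and thioredoxin genes in either direction and 2 glucocorticoid receptor targets higher. Across settings, 3.87% to 8.28% of all measured genes were at least 2-fold higher. No paired analysis was possible because each group had 1 array. Dim probes such as the second ones of Pik3ip1 and Foxo3 limit what the arrays show for those genes.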
